A study of Mus musculus with 6 samples.

Results

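Imprinted genes are transcribed mainly from the allele inherited from 1 parent, and 42 gene names of this kind, standing for 41 genes since *Zac1* is an older name of *Plagl1*, were looked up by name in the RNA-seq table of the mouse incisor. Of these, 37 were among the 19270 genes of the table, and 36 reached a mean signal of 1 over the control and mutant groups. The 5 names without a row were *Phlda2*, *Ascl2*, *Magel2*, *Nespas* and *Zac1*, and *Rtl1*, a retrotransposon-derived gene of placenta, fell under a mean of 1 at 0.386 in controls and 0.346 in mutants. RNA was from proximal incisor mesenchymal tissue of mice aged 1 month, taken 4 days after tamoxifen, in 3 control and 3 *Gli1-CreER;Arid1bfl/fl* mutant libraries. The controls are labelled wild type, whereas the methods describe them as *Arid1bfl/fl* mice given tamoxifen. CreER driven by *Gli1* acts in the GLI1+ lineage, which gives rise to both mesenchymal and epithelial cells of the incisor. *Arid1b*, a subunit of the BAF chromatin remodelling complex, is thus targeted in that lineage rather than in all cells. The paper reports its effective deletion in incisor mesenchyme and epithelium. The question was whether genes expressed from the paternal and from the maternal allele differ in level when *Arid1b* is deleted.

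An imprint is DNA methylation that is laid down at a control region in the egg or sperm and kept through later cell divisions, so that the copies of a gene behave differently according to parent. Imprinted genes lie in clusters, where 1 control region often governs paternally expressed and maternally expressed neighbours in opposite ways, in several cases through a long noncoding RNA. Many paternally expressed genes, such as *Igf2*, promote growth, and several maternally expressed genes, such as *Cdkn1c*, *Grb10* and *Igf2r*, restrain it. Several of them are also known from the quiescence of adult stem cells. The allele named for each gene below is background knowledge, because the reads of these libraries were not assigned to alleles.

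The deposited table gives 1 mean per gene and group, a normalized signal that is not divided by gene length. Single libraries were not analysed gene by gene here, so the authors' means carry no SD, no test across mice was run, and no difference below is shown to exceed the spread between mice. A fold over 1.5, the fold threshold of the study's methods, was used for counting, and the same share over all 14744 genes whose mean reached 1 is given beside the counts of imprinted genes. The upper quartile of the signal lay between 44.57 and 44.58 in the 6 libraries, and their mean between 49.2 and 54.5. If the lowest value of a library stands for 0 reads plus 1, the libraries held 37123643 to 49594469 reads on these genes. Under this inference the weakest of the 36 members, *Slc22a18*, had about 35 reads per control library and *Asb4* about 84, whereas *Dlk1* had 2012 and *Kcnq1ot1* 4578. *Arid1b* itself averaged 97.6 in controls and 38.0 in mutants. In bulk tissue, fewer cells of a type and less RNA per cell cannot be told apart.

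The groups also differed in sex-linked RNA and in the RNA of cell type markers. *Xist*, which is transcribed in female cells, averaged 3368 in controls and 814 in mutants, and Y-linked *Ddx3y* was at the lowest control mean of the table, 0.0259, against 65.3 in the mutants, so sex and genotype cannot be told apart here. Of 10 dental epithelium markers, 9 were over 1.5-fold higher in the mutants, with a summed signal of 1546 in controls and 10202 in mutants, while *Klk4* was at 1.49 and 1.21. The 9 were the keratins *Krt5*, *Krt14* and *Krt17*, *Cdh1*, *Epcam* and the enamel protein genes *Amelx*, *Ambn*, *Enam* and *Amtn*, with *Amelx* the highest at 362 against 3946. Of 10 dental mesenchyme markers, none was over 1.5-fold higher and 1 was lower, *Gli1*, at 106 in controls and 46.1 in mutants. The mutants carry *Gli1-CreER*, which the control genotype in the methods does not include. The part of this driver in the *Gli1* value was not tested and cannot be told apart from fewer GLI1+ cells. The summed signal of the 10 mesenchyme markers was 29453 in controls and 24577 in mutants, most of it from *Col1a1*, at 21211 and 17127. With most of it from 1 gene, the sum does not show how well the labelled tissue was represented. Of the 10 markers, 3 were higher and 7 lower in the mutants. *Prrx1*, at 182 and 191, and *Pdgfra*, at 487 and 423, were detected in both groups. Among markers whose mean reached 1, none passed 1.5-fold in endothelium (*Cdh5* 95.2 and 94.4), macrophages (*Csf1r* 84.8 and 97.3) or Schwann cells (*Mbp* 11.3 and 15.2). The same held for bone (*Bglap* 882 and 732) and neurons (*Tubb3* 32.0 and 42.0). Only 2 of 4 neuron markers and 3 of 4 Schwann cell markers reached that mean, and the neuron marker *Rbfox3* was under it at 0.361 and 0.546. The red cell genes *Hba-a1*, at 8.73 and 3.33, and *Hbb-bs*, at 29.0 and 9.97, were both past 1.5-fold on the lower side. The muscle genes *Myh4*, at 0.552 and 2.06, and *Acta1*, at 2.50 and 1.12, were past it in opposite directions. The part of these differences in the values below was not tested.

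Imprinted genes as a set differed little between the groups. None of the 36 was over 1.5-fold higher in the mutants, where 4.14% of all genes were, and 1 was over 1.5-fold lower, *Asb4*, which is 2.78% of the members against 1.91% of all genes. Of the members, 14 were higher and 22 lower in the mutants. Their median log2 fold was -0.04 beside 0.005 for all genes. The median absolute log2 fold was 0.127 for the members and 0.105 for all genes, and 28 of the 36 members, or 77.8%, lay within 0.322 of 0 on the log2 scale, beside 83.8% of all genes. Beyond a log2 fold of 0.322 in size, 3 members were higher, or 8.33% beside 9.1% of all genes, and 5 were lower, or 13.9% beside 7.12%. The 3 higher members were *Dlk1*, *Slc22a18* and *Nap1l5*, and the 5 lower ones were *Asb4*, *Kcnq1ot1*, *Zdbf2*, *Nnat* and *Cdkn1c*. Of these 8 genes, 5 had a mean under 10.

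Differences past 1.5-fold were more frequent at low signal over all genes, and the 1 member past it had a mean under 10. Among genes whose mean was 1 or more and under 10, 8.75% of all genes were over 1.5-fold higher and 4.24% lower, and of the 9 members at this level none was higher and 1 was lower. Where the mean was 10 or more, the shares of all genes were 2.15% and 0.912%, and none of the 27 members passed in either direction. The median absolute log2 fold of these 27 was 0.089, against 0.0837 for all genes at this level.

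**Figure D1:**
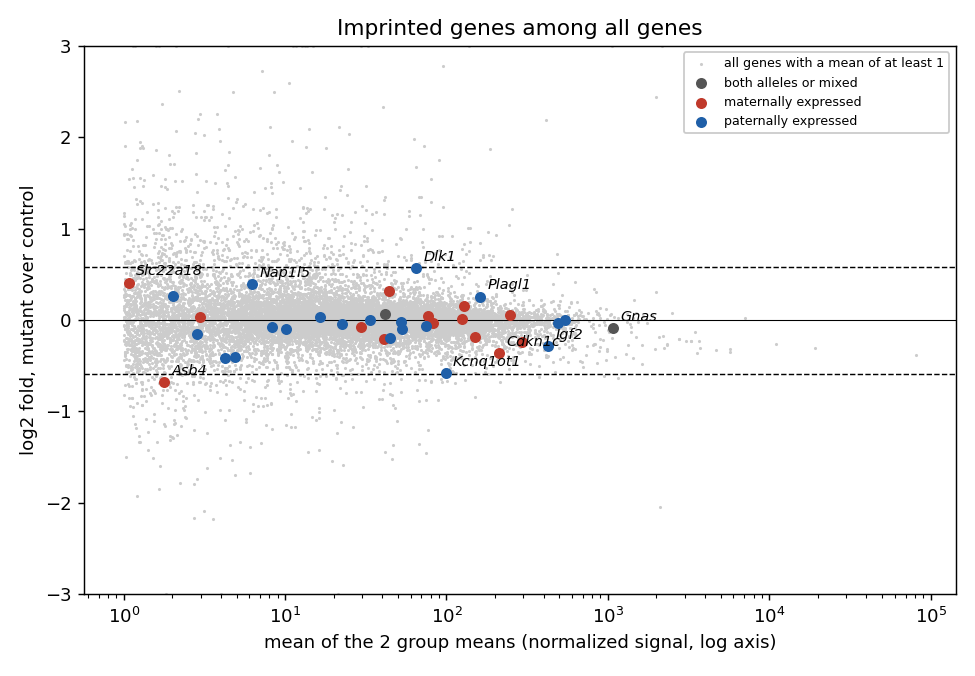
Each point is a gene with a mean signal of 1 or more, with the mean of both groups on a log x axis and the log2 fold of mutant over control on the y axis; imprinted genes are coloured by the allele they are expressed from, dashed lines mark 1.5-fold, and 20 genes beyond 3 are drawn on the edge of the axis. *Asb4* lies below the lower line, and *Dlk1* and *Kcnq1ot1* lie just inside the lines at log2 folds of 0.57 and -0.58.

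Paternally and maternally expressed genes overlapped across nearly their whole range. The 20 paternally expressed members had a median log2 fold of -0.05, of which 6 were above and 14 below 0, and ranged from -0.58 for *Kcnq1ot1* to 0.57 for *Dlk1*. The 14 maternally expressed members had a median of -0.01, of which 7 were above and 7 below 0, and ranged from -0.68 for *Asb4* to 0.41 for *Slc22a18*. The medians differed by -0.04, paternal minus maternal, on the log2 scale. Of the maternally expressed members, *Grb10*, *Copg2*, *Ppp1r9a*, *Ube3a* and *Trappc9* are imprinted only in some tissues or transcripts, whereas no paternally expressed member was so marked. Without them, 9 maternally expressed members had a median of 0.016, with 5 above and 4 below 0. The difference of the medians was then -0.068. The summed signal of the paternally expressed members was 2171 in controls and 2077 in mutants, a ratio of 0.956, and that of the maternally expressed members was 1475 and 1382, a ratio of 0.937. *Gnas* and *Inpp5f*, whose transcripts differ in the allele they use, were counted in neither class. Genes of 1 cluster share control regions and are not independent points, and 14 of the 37 members in the table lie on chromosome 7.

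**Figure D2:**
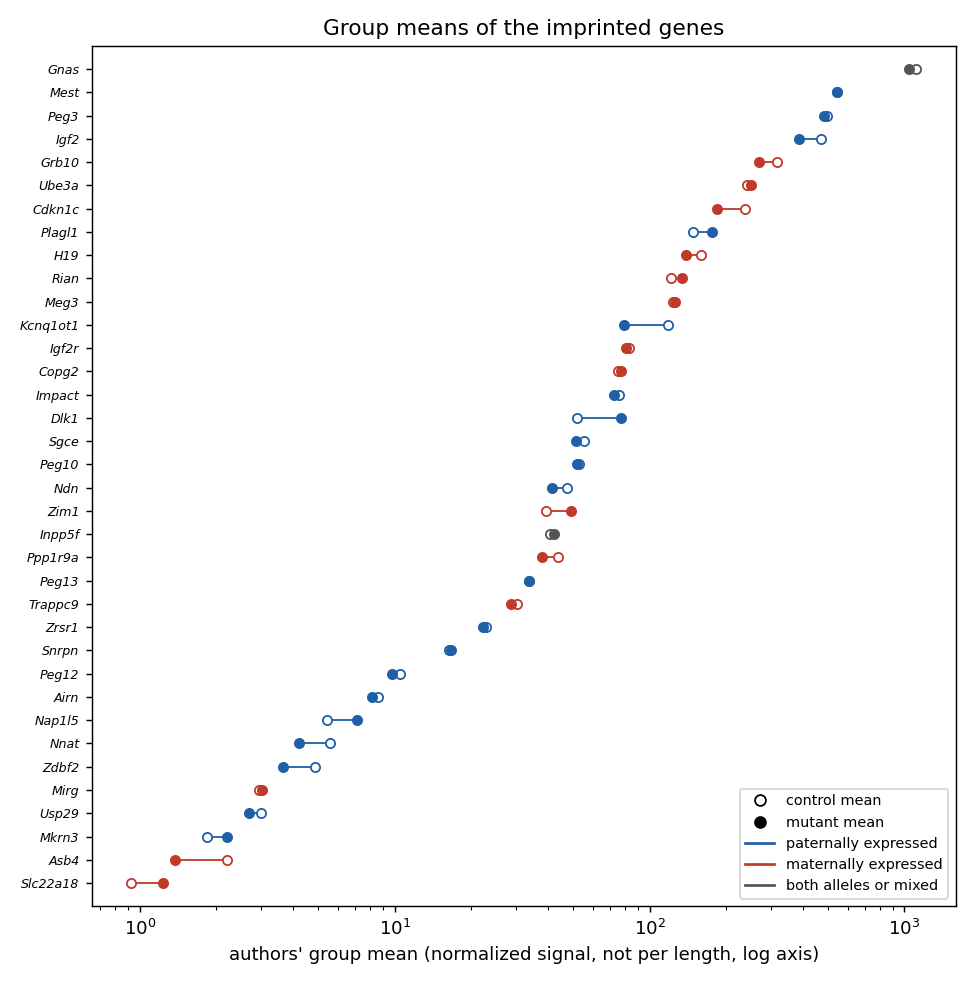
The authors' mean of the controls (open circles) and of the mutants (filled circles) is shown for each of the 36 imprinted genes, ordered by level, on a log axis of normalized signal that is not per length; colour gives the allele. In 28 of the 36 pairs the log2 fold is within 0.322 of 0, and the longest lines among genes above a signal of 10 are those of *Kcnq1ot1*, from 118 to 79.2, and *Dlk1*, from 52.1 to 77.4.

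Several imprinted genes were among the more strongly transcribed members for their length. Per kilobase of annotated exon, the control signal was 138 for *Mest*, an alpha/beta hydrolase family protein expressed from the paternal allele, 116 for *Cdkn1c*, 99.5 for *Gnas*, 82.0 for *Igf2* and 64.5 for *H19*. *Peg3*, a paternally expressed zinc finger protein, followed at 37.2 per kilobase and *Grb10* at 34.7. *Usp29*, which starts beside *Peg3* and is transcribed the other way, was the lowest of the 36 at 0.166 per kilobase. *Kcnq1ot1* was annotated as a single exon of 93092 bases, so its control signal of 118 amounted to 1.27 per kilobase.

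For sequence context, the 250 bases before the annotated start were taken from RefSeq, build GRCm38.p6, and 29 of the 36 members had an entry. Those of 5 members are shown as examples. They are *Kcnq1ot1* and *Dlk1*, which lie nearest to the fold threshold, and *Meg3*, the maternally expressed partner of *Dlk1*. The others are *Mest*, which had nearly the same level in both groups, and *Plagl1*, which was higher in the mutants. *Mest* and *Meg3* have other annotated starts, of which 1 is shown for each. Sequences run 5′ to 3′ on the strand of the gene, and capitals mark TGCCGC or its reverse complement GCGGCA, the hexamer that the imprint protecting factor ZFP57 binds when its CpG is methylated.
Kcnq1ot1, chr7:143296548-143296797, minus strand: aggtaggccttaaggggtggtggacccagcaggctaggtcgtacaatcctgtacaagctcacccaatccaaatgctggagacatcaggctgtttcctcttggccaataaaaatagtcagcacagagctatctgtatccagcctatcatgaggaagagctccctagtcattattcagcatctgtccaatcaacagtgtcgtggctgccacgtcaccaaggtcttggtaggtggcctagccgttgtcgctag
Dlk1, chr12:109452573-109452822, plus strand: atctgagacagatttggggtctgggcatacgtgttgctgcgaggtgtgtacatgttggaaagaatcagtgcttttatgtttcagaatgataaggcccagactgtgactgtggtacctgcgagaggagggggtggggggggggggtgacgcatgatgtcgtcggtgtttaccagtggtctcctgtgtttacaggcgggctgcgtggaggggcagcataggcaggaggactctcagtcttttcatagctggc
Meg3, chr12:109540746-109540995, plus strand: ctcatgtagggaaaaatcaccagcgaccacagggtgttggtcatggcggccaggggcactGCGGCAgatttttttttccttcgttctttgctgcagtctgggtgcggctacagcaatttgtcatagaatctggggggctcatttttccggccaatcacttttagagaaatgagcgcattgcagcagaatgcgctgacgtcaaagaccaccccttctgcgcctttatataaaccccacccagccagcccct
Mest, chr6:30737800-30738049, plus strand: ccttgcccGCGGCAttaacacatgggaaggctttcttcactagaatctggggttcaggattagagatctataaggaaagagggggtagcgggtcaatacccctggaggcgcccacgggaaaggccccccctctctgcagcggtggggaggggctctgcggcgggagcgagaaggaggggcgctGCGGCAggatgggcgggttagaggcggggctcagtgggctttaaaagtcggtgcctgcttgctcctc
Plagl1, chr10:13090582-13090831, plus strand: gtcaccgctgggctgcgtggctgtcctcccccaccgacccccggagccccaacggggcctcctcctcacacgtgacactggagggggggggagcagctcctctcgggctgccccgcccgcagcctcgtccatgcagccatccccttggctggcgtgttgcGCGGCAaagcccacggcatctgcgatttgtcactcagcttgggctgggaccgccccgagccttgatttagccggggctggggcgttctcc
The hexamer was found in 7 of the 29 members with an entry, or 24.1%, and in 16.5% of 10912 genes whose mean reached 1, counting a gene when any of its windows held it on either strand. The 7 were *Mest*, *Meg3*, *Plagl1*, *Copg2*, *Zim1*, *Nap1l5* and *Zdbf2*, whose log2 folds ran from -0.41 for *Zdbf2* to 0.40 for *Nap1l5*. The windows shown above hold it more often than the members as a set. Those of *Asb4*, the only member past 1.5-fold, are not shown and do not hold it. Of the paternally expressed members 25% of 16 had it, and of the maternally expressed members 27.3% of 11. In the full windows of 300 bases, which also hold the first 50 of the transcript, the shares were 37.9% of the members and 22.3% of all genes, so the count depends on the window. The window with most CpG sites held a median of 10 in the members and 17 in all genes. The windows of *Peg3* and *Usp29* share 163 bases, in opposite orientation. These matches describe letters only, and methylation was not measured here.

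In the *Kcnq1ot1* cluster on distal chromosome 7, log2 folds of the 3 measured members spanned 0.99, and 0.22 without the weakly expressed *Slc22a18*. *Kcnq1ot1* is a paternally expressed long noncoding RNA that silences its neighbours on that chromosome copy, and the bases before its start are the first sequence above. It averaged 118 in controls and 79.2 in mutants, 33.1% lower, a log2 fold of -0.58 that lies at percentile 1.94 of all genes. *Cdkn1c*, the maternally expressed inhibitor p57 that holds cells out of the cycle, averaged 237 in controls and 184 in mutants, a log2 fold of -0.36 at percentile 5.63. *Kcnq1ot1* and *Cdkn1c* were thus both lower, by 1.49-fold and 1.29-fold. Other imprinted genes nearby on chromosome 7, outside the members, went in both directions. Log2 folds were 0.94 for *Kcnq1*, 0.14 for *Osbpl5*, 0.13 for *Cd81* and 0.05 for *Nap1l4*. They were -0.06 for *Tssc4*, -0.42 for *Th* and -0.86 for *Dhcr7*. Of these genes, *Kcnq1* and *Th* had means under 10. *Slc22a18*, a maternally expressed transporter, was barely above the lower limit of analysis, with a mean of 0.927 in controls and 1.23 in mutants.

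Exons of *Kcnq1ot1* overlap those of *Kcnq1*, a potassium channel gene read from the opposite strand, and whether reads were counted by strand is not given in the sources used here. *Kcnq1* averaged 1.44 in controls and 2.78 in mutants, in the opposite direction to *Kcnq1ot1* and at a far lower signal. Exon overlap of either kind was found for 9 of the 36 members. For *Cdkn1c*, *Igf2*, *Gnas*, *Mest* with *Copg2*, *Zrsr1* and *Ube3a* the partner lies on the other strand, and for *Snrpn* it is *Snurf* on the same strand, so their means may hold reads of both genes.

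In the *Dlk1*-*Meg3* cluster on chromosome 12, the paternally expressed coding gene *Dlk1* was higher, and the maternally expressed noncoding RNAs differed by less. *Dlk1* encodes a transmembrane protein related to Notch ligands that marks progenitor cells in several tissues. Its mean was 52.1 in controls and 77.4 in mutants, 48.6% higher, a log2 fold of 0.57 at percentile 95.7. *Meg3* averaged 124 in controls and 125 in mutants. *Rian*, which hosts small nucleolar RNAs, had means of 121 and 135, a log2 fold of 0.15, and *Mirg*, which hosts miRNAs, 2.95 and 3.03. *Rtl1*, the other paternally expressed coding member here, was under the lower limit of analysis at 0.386 and 0.346. The ratio of *Dlk1* to *Meg3* signal was thus 0.420 in controls and 0.617 in mutants. *Dio3*, an imprinted deiodinase gene at the far end of the same cluster, had means of 59.0 and 58.4.

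The growth genes *Igf2* and *H19* were both slightly lower. *Igf2*, the paternally expressed fetal growth factor, averaged 469 in controls and 386 in mutants, a log2 fold of -0.28. *H19*, the maternally expressed noncoding RNA that shares its enhancers, had means of 159 and 139, a log2 fold of -0.19. *Igf2r*, the receptor that clears IGF2, had means of 83.1 and 80.9, and *Airn*, the noncoding RNA antisense to it, 8.57 and 8.13. *Grb10*, an adaptor that restrains insulin and IGF1 receptor signalling, had means of 315 and 268, a log2 fold of -0.24. *Plagl1*, a zinc finger factor, was in the other direction at 148 in controls and 176 in mutants. Of these 6 genes, *Plagl1* alone was higher in the mutants, and none had a log2 fold beyond 0.322 in size.

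*H19*, *Igf2* and *Mest* are also host transcripts of miRNAs, whose mature forms from RefSeq (GRCm38.p6) are shown because the level of the host is what was measured here. Capitals mark the seed, bases 2 to 8.
miR-675-5p, chr7:142577112-142577133, minus strand: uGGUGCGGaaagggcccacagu
miR-675-3p, chr7:142577078-142577099, minus strand: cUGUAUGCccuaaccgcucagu
miR-483-5p, chr7:142654968-142654989, minus strand: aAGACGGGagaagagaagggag
miR-483-3p, chr7:142654932-142654952, minus strand: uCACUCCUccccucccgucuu
miR-335-5p, chr6:30741314-30741336, plus strand: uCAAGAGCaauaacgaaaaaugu
miR-335-3p, chr6:30741354-30741375, plus strand: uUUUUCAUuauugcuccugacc
No seed is shared among these 6 sequences. In all, 22 hairpins lie within 7 of the members on the same strand, of which 14 are in *Mirg*. The mature miRNAs themselves were not measured.

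In the *Peg10* cluster on chromosome 6, *Asb4*, a maternally expressed ankyrin repeat protein, was the only member past 1.5-fold. Its mean was 2.19 in controls and 1.37 in mutants, a log2 fold of -0.68, from an estimated 84 and 58 reads per library. *Peg10*, a paternally expressed gene derived from a retrotransposon, had means of 53.1 and 52.1 and *Sgce*, epsilon-sarcoglycan, 55.1 and 51.4. *Ppp1r9a*, which encodes the actin-binding protein neurabin, had means of 43.6 and 37.8. The difference was thus seen at the gene with the lowest signal of the 4.

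The *Peg3* cluster had a strongly expressed paternal member that was alike in both groups and a maternal one that was higher. *Peg3* averaged 496 in controls and 485 in mutants, and *Usp29*, a ubiquitin protease gene, 2.99 and 2.69. *Zim1*, a maternally expressed zinc finger gene, had means of 39.3 and 49.0, a log2 fold of 0.32. *Mest*, on chromosome 6, was nearly level at 544 and 546, and *Copg2*, a coat protein gene whose end overlaps it, had means of 75.3 and 77.6.

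In the *Snrpn* cluster, the region of Prader-Willi and Angelman syndromes in humans, the 5 members lay between log2 folds of -0.19 and 0.26. *Snrpn*, a spliceosomal protein gene, had means of 16.3 in controls and 16.7 in mutants. *Ndn*, a MAGE family gene, had means of 47.4 and 41.5, *Peg12* 10.5 and 9.77, and *Mkrn3*, a ubiquitin ligase gene, 1.84 and 2.20. *Ube3a*, a ubiquitin ligase whose imprint is known from neurons, had means of 241 and 250.

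Of the remaining members, 3 had a signal under 10 and log2 folds beyond 0.39 in size. *Nnat*, a small proteolipid, had means of 5.55 in controls and 4.20 in mutants, *Zdbf2* 4.88 and 3.66, and *Nap1l5*, a nucleosome assembly family gene, 5.42 and 7.13. The others lay close to equality. *Gnas*, the stimulatory G protein alpha subunit and the member with the highest signal, had means of 1113 and 1046, *Impact* 75.9 and 72.6, *Inpp5f* 40.6 and 42.4, and *Zrsr1* 22.8 and 22.2. *Peg13*, a noncoding RNA within *Trappc9*, had means of 33.7 and 33.6, and *Trappc9* itself 30.1 and 28.6.

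Where a cluster held a paternally and a maternally expressed gene, 1 pair was chosen by hand and compared directly. The paternal gene had the higher log2 fold in 3 of 9 pairs and the lower in 6, with a median difference of -0.04, and 5 pairs differed by under 0.2. Among the maternal partners in these 5 pairs, *Copg2*, *Trappc9* and *Ube3a* are imprinted only in some tissues or transcripts. Whether they are imprinted in this tissue was not measured. The widest of these 9 differences ran in opposite directions. They were 0.65 for *Peg10* over *Asb4* and 0.55 for *Dlk1* over *Meg3*, against -0.35 for *Peg3* over *Zim1* and -0.22 for *Kcnq1ot1* over *Cdkn1c*. The tally depends on the choice of partner. Over all 19 paternal and maternal pairs within clusters, a set added after seeing the data, the paternal gene was above in 9 and below in 10, with a median difference of -0.02. With *Ppp1r9a* in place of *Asb4* the difference for *Peg10* was 0.18, and with *Slc22a18* in place of *Cdkn1c* that for *Kcnq1ot1* was -0.99.

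**Figure D3:**
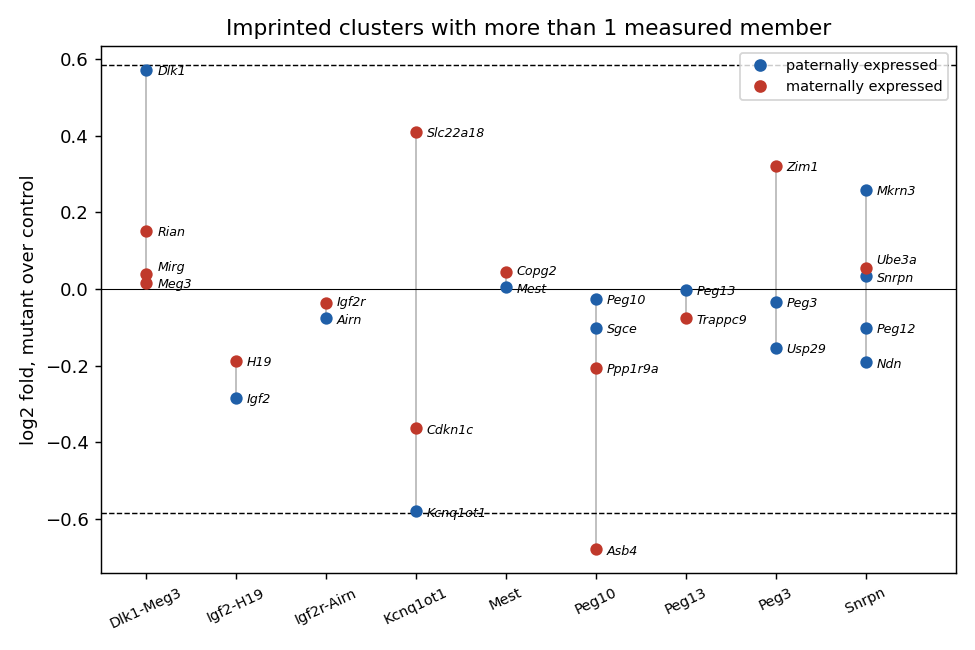
Log2 folds of mutant over control (y axis) are shown for the 9 imprinted clusters with more than 1 measured member (x axis), with paternally expressed genes in blue, maternally expressed genes in red, a grey line over the range of each cluster and dashed lines at 1.5-fold. The 3 measured members of the *Kcnq1ot1* cluster span 0.99, from -0.58 to 0.41, but 0.22 without *Slc22a18*. *Kcnq1*, which is not a member and is not drawn, had a log2 fold of 0.94. Blue points lie both above and below red ones.

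Imprinted genes outside the members had log2 folds from -0.86 to 0.94. Of 37 such names, 29 were in the table and 24 had a mean of at least 1, with a median log2 fold of 0.04. Past 1.5-fold, 2 were higher, or 8.33%, and 1 was lower, or 4.17%, beside the shares of 4.14% and 1.91% of all genes. The higher ones were *Kcnq1* and *Cobl*, an actin nucleator gene beside *Grb10* with means of 23.0 in controls and 37.7 in mutants. The lower one was *Dhcr7*, an enzyme of cholesterol synthesis, with means of 51.5 and 28.4. *Dcn*, the matrix proteoglycan decorin and the highest of the list, had means of 799 and 583. Several of these genes are imprinted in placenta or brain only.

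Genes that keep or erase imprints were even between the groups. Of 20 names, 18 were in the table, each with a mean over 1, and none passed 1.5-fold in either direction, beside 4.14% and 1.91% of all genes, with log2 folds from -0.20 for *Tet1* to 0.20 for *Rb1* and a median of 0.04. *Zfp57* averaged 19.3 in controls and 18.1 in mutants, and *Zfp445*, the other zinc finger protein that protects imprints, 162 and 167. *Trim28*, which they recruit and which had the highest mean of the list, had 177 and 188. *Dnmt1*, the maintenance methyltransferase, had means of 95.7 and 93.8, and *Uhrf1*, its partner at replication, 47.4 and 48.8. *Ctcf*, the insulator protein that binds the *H19* control region, had 120 and 126.

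**Figure D4:**
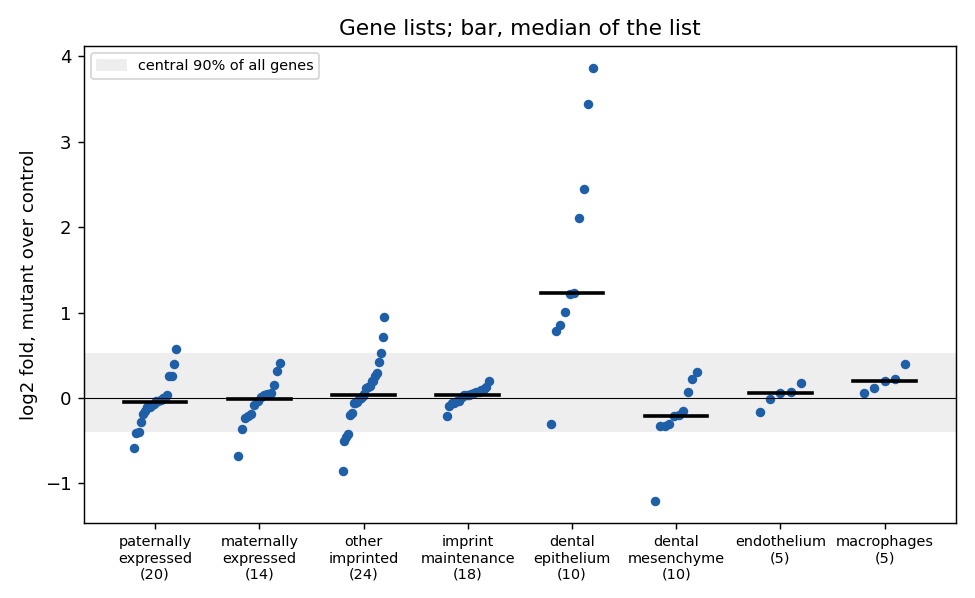
Each point is the log2 fold of mutant over control of a gene whose mean reached 1 (y axis), in lists on the x axis with the number of genes in brackets; black bars are list medians and the grey band holds the central 90% of all genes. The medians of paternally expressed, maternally expressed, other imprinted and imprint maintenance genes lie between -0.05 and 0.04, and that of dental epithelium markers at 1.23.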

How the data were processed

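RNA-seq of 6 libraries, 3 control and 3 mutant, was analysed from 2 deposited tables. The submitters' processing notes name TopHat2 2.0.8 and mm10, and the paper names Partek Flow; counting, strand and annotation are not given in the sources used here. The deposited group means are a normalized signal, checked to be the arithmetic mean of the libraries of a group and printed as the authors' mean. A p-value, FDR, ratio and fold change of the authors' comparison make up 4 columns of the table and were not used, nor was a second table filtered on them. In the library summary, 4 numeric columns were not used. The planned folds were the mutant mean over the control mean, for genes with a mean of at least 1, with a threshold of 1.5. With no values per gene and library, no test was run.

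Every member in the table was named with both means. Of the other lists, genes past 1.5-fold and the highest expressed were named. *Dio3*, *Klk4*, the genes flanking clusters and the imprint maintenance genes given beside *Trim28* were named after their values were seen. The same holds for the other imprinted genes given near *Kcnq1ot1*. A planned cell type marker is not reported here and was left out of its list. The members and lists were chosen with earlier results of these data known. The window before the start was shortened from 300 to 250 bases after the counts over 300 were seen, to leave out transcribed bases, and both counts are given. Exon lengths and coordinates are from GENCODE vM21 (GRCm38, also named mm10). Alternatives were other limits on mean and fold, centring, subtraction of the lowest mean, means in place of medians and other allele classes. The counting of folds was tested on simulated data. Python 3.11.15, numpy 2.4.6, pandas 2.3.3 and matplotlib 3.10.9 were used.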

Additional observations from a re-analysis of the deposited data

How the results depend on the processing

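The counts of members past the threshold depended on the limits chosen. With the limit on the log2 fold lowered to 0.322, 3 members were higher and 5 lower in the mutants. No member was lower when a mean of 10 or more, or a fold over 2, was asked for, since *Asb4* has a low mean and a fold of 1.6. Without a limit on the mean, after centring and after subtraction of the lowest mean, the counts were 0 higher and 1 lower, as in the report.

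Medians moved by less than 0.1 in all 36 alternatives, and 4 changed sign, all close to 0. The difference of paternal minus maternal medians ran from -0.068 to 0.006. It was 0.0013 for genes whose mean reached 10 and 0.006 with means in place of medians. The maternal median became 0.016 without genes imprinted only in some tissues or transcripts, and that of the other imprinted genes -0.0073 for genes whose mean reached 10. *Dlk1* and *Kcnq1ot1*, both at 1.49-fold, lie close enough to the threshold that a small shift of either mean would move them across.

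No paired analysis was possible because the table holds 1 mean per group, without columns for the replicates that the labels number. For the same reason no replicate was left out in turn, and the spread between mice behind each mean is unknown.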

Other observations

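Genes that flank the imprinted clusters were looked up as well. For each of the 18 clusters, the nearest gene whose mean reached 1 on either side, outside both imprinted lists, gave 36 genes with a median log2 fold of 0.05, of which 1, or 2.78%, was over 1.5-fold higher and 2, or 5.56%, were lower in the mutants, beside 4.14% and 1.91% of all genes. *Adam23*, a cell surface protein gene 131 kb beyond *Zdbf2*, averaged 61.1 in controls and 22.5 in mutants, a log2 fold of -1.44, while *Eef1b2* on the other side of *Zdbf2* had means of 352 and 365. *B3gnt2*, a glycosyltransferase gene beside *Zrsr1*, had means of 4.81 and 2.79, and *Pnldc1*, beside *Igf2r* and *Airn*, had 1.90 and 3.00. The difference at *Adam23* was larger than that of any imprinted member, and the spread between mice is unknown for it too.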
